A study of Homo sapiens with 6 samples.

Results

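Elastic fibres are built on fibrillin microfibrils, and 10 genes for the proteins of that scaffold were followed in Hs578T cells, a triple-negative breast cancer (TNBC) line with mesenchymal features. The genes were the fibrillins FBN1 and FBN2, elastin (ELN), the fibulins FBLN5, EFEMP1 and EFEMP2, the microfibril-associated glycoproteins MFAP2 and MFAP5, and the EMILINs EMILIN1 and EMILIN2. They were found by symbol in a table of 46427 genes, where each of the 10 symbols had 1 row. RNA was sequenced from 3 libraries of cells that stably carried a control shRNA (shCTRL) and 3 libraries of cells that carried CCN3 shRNA #2 (shCCN3), the comparison that shows which genes move when CCN3, a secreted matricellular protein of the CCN family, is depleted. Both cell lines were made by retroviral transduction with the pSUPER vector and puromycin selection, and both were kept in DMEM with serum and antibiotics. The replicates were described as biological, but whether they came from separate transductions, and whether each selected line was a single clone, was not given in the sources used here. The paper's methods speak of selected clones, without giving how many made up a line. If each group was 1 line, n = 3 measures the spread within that line, and an effect of the CCN3 shRNA and a difference between the selected lines cannot be told apart. The libraries held only 1 CCN3 shRNA. The members were chosen from a family known to hold large changes in this same contrast, so their fold changes, overlaps and counts are given as a description and carry no test.

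Fibrillin-1 and fibrillin-2 polymerise into microfibrils, which bind latent TGF-beta complexes and serve as the bed on which elastin is laid down. Fibulins carry elastin and lysyl oxidases to that bed, MFAP2 and MFAP5 decorate the fibrils, and EMILINs lie where elastin meets microfibrils. EMILIN1 also binds integrins and restrains the maturation of TGF-beta. Such fibres are made mainly by fibroblasts and smooth muscle cells, and fibrillin microfibrils can also form without elastin.

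The libraries held 56159110 to 68393177 counts, and 3 counts corresponded to 0.0435 to 0.0540 CPM, the unit used for levels throughout, which expresses counts relative to the library's TMM-adjusted size. This floor covers counting error only. CCN3 itself was 101 ± 2.43 CPM (SD, n = 3) in shCTRL and 47.0 ± 0.469 CPM (SD, n = 3) in shCCN3 cells, a log2 fold change of -1.10 (SE 0.055). Of the mesenchymal markers, vimentin (VIM) was at 7775 ± 186 CPM and fibronectin (FN1) at 2361 ± 175 CPM in shCTRL cells (SD, n = 3), whereas the epithelial genes CDH1 and EPCAM and the oestrogen receptor gene ESR1 did not exceed a mean of 0.0711 CPM in either group. Between the groups the mesenchymal list was split. CDH2 rose from 89.0 to 162 CPM (log2 fold change 0.87) and FN1 moved by 0.18. VIM (-0.14), SPARC (-0.04) and S100A4 (-0.39) had negative log2 fold changes. The epithelial keratins were detected, with KRT18 at 163 CPM in shCTRL and 231 CPM in shCCN3 cells (log2 fold change 0.51) and KRT8 at 13.9 CPM in shCCN3 cells (log2 fold change -0.52). Of the receptors that define TNBC, ERBB2 was read at 77.9 ± 5.49 CPM and PGR at 2.86 ± 0.332 CPM (SD, n = 3) in shCTRL cells. Fibroblast markers, which are also made by mesenchymal tumour cells, were all 6 detected, and their summed level lay between 399 and 439 CPM in shCTRL libraries and between 259 and 280 CPM in shCCN3 libraries. Within that list PDGFRA went from 290 to 48.9 CPM and COL1A1 from 36.1 to 97.3 CPM. Smooth muscle markers summed to at most 0.396 CPM, and the endothelial list summed to between 3.11 and 4.46 CPM, nearly all of it PECAM1, with CDH5 at 0 counts in every library. The T-cell gene CD3E was also at 0 throughout, and the leukocyte list rested on CD68, which went from 102 to 58.5 CPM. The part of these markers in the changes below was not tested. In bulk RNA, fewer cells that express a gene and less RNA per cell cannot be told apart.

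Of the 10 genes, 8 passed the filter on low counts and 2 did not. EMILIN1, FBN2 and MFAP2 were lower in shCCN3 cells, EFEMP1, FBLN5 and EMILIN2 were higher, and FBN1 and EFEMP2 were not called, where a call is an adjusted p under 0.05 in a fit across all 17419 genes tested. The same call was made for 33.4% of all genes tested, 17.3% in the lower and 16.2% in the higher direction. The 3 shCCN3 values did not overlap the 3 shCTRL values for 6 of the members, as for 46.3% of all genes. Changes of at least 2-fold with a call were seen for EMILIN1, FBN2 and EFEMP1, against 8.1% of all genes. The median log2 fold change of the 8 members was -0.09, against 0.01 over all genes tested, and the median size regardless of sign was 0.85, against 0.24. Because the contrast chose the members, nothing is read from these shares. The family thus held changes in both directions, from the near loss of EMILIN1 to a rise of EFEMP1, around an FBN1 level that moved little.

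**Figure D1:**
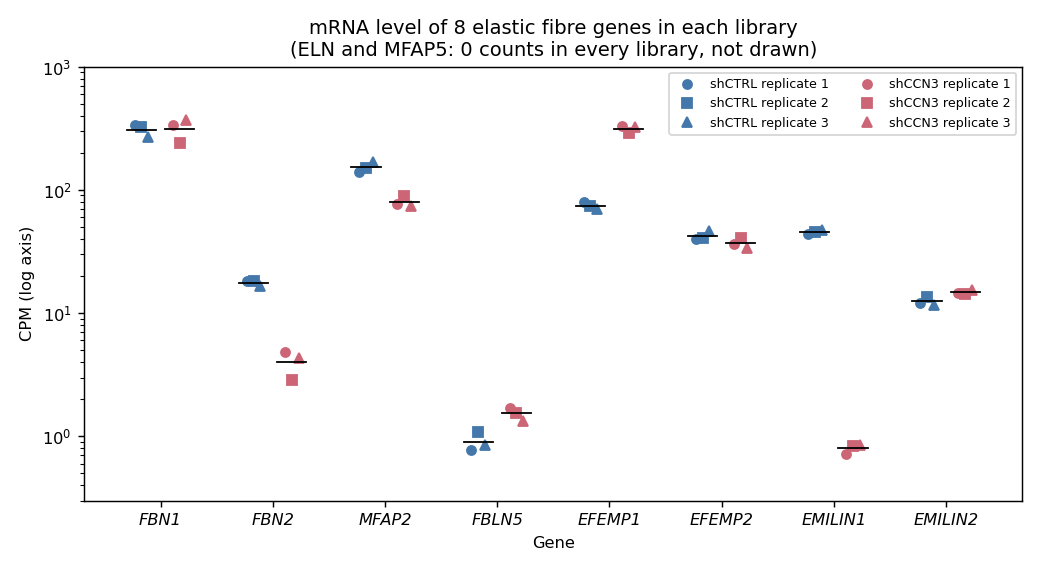
TMM-scaled CPM on a log axis of the 8 tested genes, with 1 point for each of the 3 shCTRL and 3 shCCN3 libraries and a line at each group's mean. EMILIN1 falls from 45.7 to 0.799 CPM, FBN2 from 17.7 to 3.98 CPM and MFAP2 from 152 to 79.6 CPM, EFEMP1 rises from 74.1 to 314 CPM, and the FBN1 and EFEMP2 points of both groups overlap.

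The fibrillins are the structural core of the microfibril. FBN1, at chr15:48408313-48645709 (GRCh38, RefSeq, minus strand), encodes the fibrillin of adult tissue that is mutated in Marfan syndrome. It measured 333, 321 and 269 CPM in the shCTRL libraries and 333, 240 and 368 CPM in the shCCN3 libraries. The shCCN3 libraries held both the lowest and the highest FBN1 value, and the groups overlapped. The means were 307 ± 34.0 and 314 ± 65.9 CPM (SD, n = 3), with a log2 fold change of 0.03 (SE 0.145). Leaving out 1 library at a time moved this value between -0.10 and 0.19, so that its sign was not fixed.

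FBN2, at chr5:128257909-128538245 on the minus strand, encodes the fibrillin that prevails in the embryo. It read 18.1, 18.3 and 16.6 CPM in shCTRL and 4.80, 2.84 and 4.30 CPM in shCCN3 libraries. Every shCCN3 library was below every shCTRL library. The group means were 17.7 ± 0.949 and 3.98 ± 1.02 CPM (SD, n = 3), a 4.42-fold lower level (log2 fold change -2.14, SE 0.165). It lay between -2.30 and -1.95 on the log2 scale when any 1 library was omitted. FBN2 ranked 194 from the largest decrease among all 17419 genes tested, and 26 among the 10040 that reached 10 CPM in at least 1 group, which it did in shCTRL cells only.

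Per kilobase of its longest transcript, FBN1 stood far above FBN2 in both groups. FBN2 made up 5.75 ± 0.346% of the summed fibrillin CPM per kilobase in shCTRL and 1.32 ± 0.158% in shCCN3 cells (SD, n = 3). The share ran from 5.43 to 6.11% and from 1.22 to 1.5%, without overlap. The summed fibrillin level was 27.7 ± 2.97 and 27.0 ± 5.68 CPM per kilobase (SD, n = 3), with overlapping libraries. Fibrillin mRNA was almost all FBN1 in both groups.

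The low values of both fibrillins in replicate 2 of shCCN3 were shared by other long transcripts. FBN1 and FBN2 have longest transcripts of 11756 and 11132 bases. In that library FBN1 lay -0.36 and FBN2 -0.44 log2 units from their group means. The median deviation there was -0.13 over 2434 genes with transcripts of at least 6000 bases and 0.15 over 2399 genes with transcripts under 2000 bases. In the other libraries the long transcripts deviated by between -0.07 and 0.09 in the median. The part of transcript length in the spread of the fibrillins was not tested. Between the groups, the median log2 fold change was 0.07 for the long and -0.04 for the short transcripts.

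**Figure D2:**
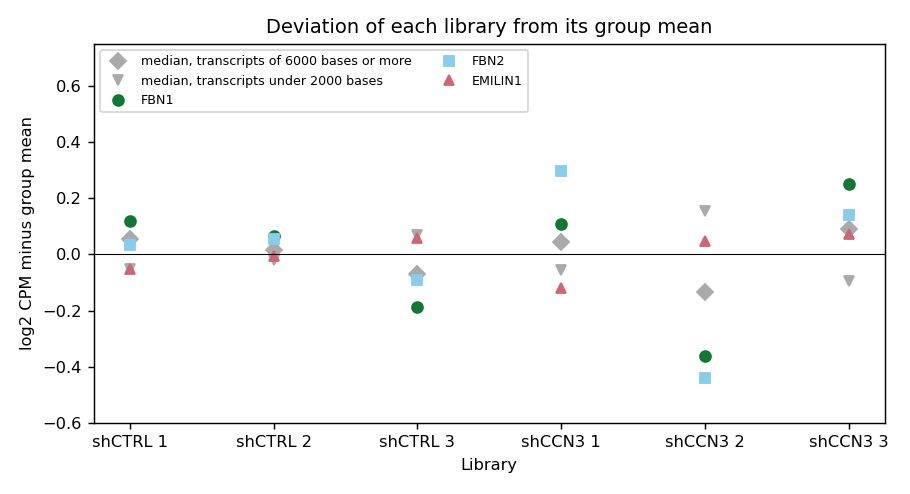
Deviation of each library from its group mean in log2 CPM (0.1 CPM added) for FBN1, FBN2 and EMILIN1, beside the medians of long and of short transcripts. In shCCN3 replicate 2, FBN1 (-0.36), FBN2 (-0.44) and the median of transcripts of 6000 bases or more (-0.13) lie below 0, and the median of short transcripts (0.15) lies above it, while EMILIN1 stays within 0.121 of its group mean in every library.

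The 250 bases before the RefSeq transcription start of the fibrillins are printed to set side by side the upstream sequence of a gene that fell and of a paralog that did not. Capitals mark matches on either strand to 6 sets of letters named for the factors or boxes they resemble. The FBN1 window is chr15:48644971-48645220 and the FBN2 window chr5:128538246-128538495 (GRCh38.p14, both minus strand, read 5′ to 3′ along the gene). The FBN1 window lies inside the gene, since longer transcripts start upstream of it.
FBN1: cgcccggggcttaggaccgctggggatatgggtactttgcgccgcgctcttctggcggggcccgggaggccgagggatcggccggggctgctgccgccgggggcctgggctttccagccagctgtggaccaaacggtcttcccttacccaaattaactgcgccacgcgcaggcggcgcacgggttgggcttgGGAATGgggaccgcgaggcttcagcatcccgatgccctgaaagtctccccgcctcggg
FBN2: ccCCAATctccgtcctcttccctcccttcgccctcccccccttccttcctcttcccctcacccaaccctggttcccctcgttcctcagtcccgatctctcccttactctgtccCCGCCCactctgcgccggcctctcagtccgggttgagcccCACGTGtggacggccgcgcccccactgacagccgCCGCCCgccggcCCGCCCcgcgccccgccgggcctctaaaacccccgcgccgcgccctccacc
Both windows held 25 CpG, against a median of 11 over all 35116 RefSeq windows of this length. The FBN1 window had 1 match to GGAATG, the letters of a TEAD motif, which 11.9% of all windows hold. The FBN2 window had no match to these letters. It had 1 match to the E-box letters CACGTG, which occur in 6.34% of all windows. It also had 3 matches to the GC box GGGCGG, present in 42.6% of windows. A single CCAAT, found in 32.0% of windows, lay at its 5′ end. Neither window held the AP-1 letters TGANTCA, which 6.57% of windows have. Neither held the TATA letters TATAAA either, which 10.7% of windows have. A match describes letters and is not evidence of binding.

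MFAP2 and MFAP5 are small glycoproteins that coat microfibrils. MFAP2, at chr1:16974502-16981583 on the minus strand, had the highest level per kilobase of all members in shCTRL cells. It measured 140, 149 and 167 CPM in shCTRL and 76.7, 88.6 and 73.6 CPM in shCCN3 libraries. The groups did not overlap. The means were 152 ± 14.0 and 79.6 ± 7.91 CPM (SD, n = 3), a 1.91-fold lower level (log2 fold change -0.93, SE 0.091, between -1.01 and -0.86 with 1 library left out). MFAP5, at chr12:8645943-8662826, had 0 counts in all 6 libraries, so that its level was below the 3-count floor.

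Upstream sequence of MFAP2 was taken from the outer of its RefSeq starts, at chr1:16981584-16981833 (GRCh38.p14, minus strand), and is printed because it held the AP-1 letters more than once.
MFAP2: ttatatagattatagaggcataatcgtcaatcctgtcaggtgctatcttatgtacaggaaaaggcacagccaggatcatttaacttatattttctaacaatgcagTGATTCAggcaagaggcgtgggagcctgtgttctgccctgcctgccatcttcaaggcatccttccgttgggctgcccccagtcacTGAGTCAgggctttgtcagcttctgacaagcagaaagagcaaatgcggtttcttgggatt
This window had 2 matches to TGANTCA and only 4 CpG, and no match to the other letters searched. The window before the inner start held 28 CpG and 2 matches to GGGCGG but no TGANTCA. Gene-level counts do not show which start was used.

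Elastin is the rubber-like core that the microfibrils surround. ELN, at chr7:74028173-74069907, had 0 counts in each of the 6 libraries, so no change could be measured and mRNA for the elastic core itself was not detectable at this depth. The 24 tested genes nearest to ELN were lower as a group (median log2 fold change -0.74), as were the 821 tested genes of chromosome 7 (median -0.43). The part of this regional shift in the ELN reading was not tested, and ELN had no counts in either group.

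The fibulins link elastin, microfibrils and cross-linking enzymes. EFEMP1 (fibulin-3), at chr2:55865967-55923782, encodes a secreted glycoprotein of basement membranes and elastic tissue. It read 79.2, 73.7 and 69.5 CPM in shCTRL and 328, 288 and 325 CPM in shCCN3 libraries. The lowest shCCN3 value was far above the highest shCTRL value. The means were 74.1 ± 4.87 and 314 ± 22.4 CPM (SD, n = 3), a 4.24-fold higher level (log2 fold change 2.08, SE 0.077). The value stayed between 2.04 and 2.14 with each library left out. EFEMP1 ranked 288 from the largest increase among all 17419 genes tested, and 36 among the 10040 that reached 10 CPM in at least 1 group.

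FBLN5 (fibulin-5), at chr14:91869411-91947694, binds elastin and LOXL1 and is needed for elastic fibre assembly. It was the scarcest tested member in shCTRL cells, with 53, 68 and 57 counts against 118, 86 and 86 counts in shCCN3 libraries. These are 0.771, 1.08 and 0.849 CPM against 1.71, 1.55 and 1.34 CPM. The groups did not overlap, although the counts were few. The means were 0.901 ± 0.162 and 1.53 ± 0.184 CPM (SD, n = 3), a 1.71-fold difference (log2 fold change 0.77, SE 0.207). Its call was lost without shCTRL replicate 1, without shCTRL replicate 3 or without shCCN3 replicate 1, where the log2 fold change was 0.67, 0.73 and 0.68.

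EFEMP2 (fibulin-4), at chr11:65866441-65872800, assists lysyl oxidase in cross-linking elastin. It measured 40.0, 40.8 and 46.7 CPM in shCTRL and 36.4, 40.4 and 33.9 CPM in shCCN3 libraries. The highest shCCN3 value lay inside the shCTRL range. The means were 42.5 ± 3.66 and 36.9 ± 3.29 CPM (SD, n = 3), with a log2 fold change of -0.21 (SE 0.088), which was called only when shCCN3 replicate 2 was left out (-0.27). EFEMP2 overlaps MUS81, a DNA repair gene on the opposite strand with 20151 counts over the 6 libraries. Whether counting used the strand was not given in the sources used here, so reads from the shared stretch could have been assigned to either gene.

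Per kilobase, EFEMP1 made up 56.3 ± 3.56% of the summed level of these 3 fibulins in shCTRL and 86.0 ± 1.91% in shCCN3 cells (SD, n = 3). The sum itself was 43.5 ± 0.727 and 121 ± 6.16 CPM per kilobase (SD, n = 3). The libraries did not overlap in either measure. The summed level of these 3 fibulins was higher in shCCN3 cells, and EFEMP1 carried most of the difference. FBLN1, FBLN2 and FBLN7, which are no members, were not in the sum.

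EMILINs are elastin microfibril interface proteins with a C1q-like domain. EMILIN1, at chr2:27078615-27086403, binds integrins of the alpha-4 and alpha-9 class and holds back TGF-beta processing. It measured 44.1, 45.5 and 47.6 CPM in shCTRL and 0.725, 0.828 and 0.844 CPM in shCCN3 libraries. In counts these are 3028, 2862 and 3195 against 50, 46 and 54. The 3 values of each group lay close together and the groups were far apart. The means were 45.7 ± 1.78 and 0.799 ± 0.0644 CPM (SD, n = 3), a 57.3-fold lower level (log2 fold change -5.84, SE 0.098). This SE was smaller than those of the DESeq2 fit (0.144) and the limma-voom fit (0.156). The log2 fold change lay between -5.88 and -5.77 with each library left out. Of the 17419 genes tested, 37 had a lower log2 fold change, and among the 10040 genes that reached 10 CPM in at least 1 group EMILIN1 ranked 4 from the largest decrease. The residual counts in the shCCN3 libraries stood well above the 3-count floor, so that reads assigned to EMILIN1 remained there. That floor covers counting error only, and the source of these reads was not tested.

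EMILIN2, at chr18:2846232-2916003 on the plus strand, encodes the close paralog. It measured 12.2, 13.5 and 11.6 CPM in shCTRL and 14.6, 14.2 and 15.5 CPM in shCCN3 libraries. The groups did not overlap, by a narrow margin. The means were 12.4 ± 0.954 and 14.8 ± 0.639 CPM (SD, n = 3), a 1.19-fold difference (log2 fold change 0.25, SE 0.086). The call was lost in 6 of 13 alternative fits, among them the fit with no filter on low counts and those without shCTRL replicate 1, shCTRL replicate 3, shCCN3 replicate 1 or shCCN3 replicate 3, where the log2 fold change lay between 0.21 and 0.26. The small gain in EMILIN2 was nowhere near the size of the loss in EMILIN1. EMILIN1 made up 84.6 ± 1.26% of the EMILIN1 and EMILIN2 level per kilobase in shCTRL and 7.5 ± 0.543% in shCCN3 cells (SD, n = 3).

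The window of 250 bases before a RefSeq start of EMILIN2, chr18:2846756-2847005 (GRCh38.p14, plus strand), is printed because letters of 3 motifs ran into each other in 1 stretch. Like the FBN1 window, it lies inside the gene as annotated, which begins further upstream.
EMILIN2: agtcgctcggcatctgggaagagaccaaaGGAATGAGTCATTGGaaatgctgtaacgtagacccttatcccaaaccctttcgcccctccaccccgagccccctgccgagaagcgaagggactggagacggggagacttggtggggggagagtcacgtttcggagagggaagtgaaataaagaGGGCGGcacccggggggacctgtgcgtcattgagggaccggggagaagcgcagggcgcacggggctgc
The capitals near its 5′ end begin with GGAATG, which overlaps a match to TGANTCA, which in turn overlaps CCAAT read on the reverse strand. It also held 1 GGGCGG and 17 CpG. No window for EMILIN1, EFEMP1, ELN or MFAP5 was used here.

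The order of the members changed between the groups. In shCTRL cells the level per kilobase of longest transcript ran from MFAP2 (64.1 ± 5.89) through FBN1 (26.1 ± 2.89), EFEMP1 (24.5 ± 1.61), EFEMP2 (18.7 ± 1.61), EMILIN1 (11.6 ± 0.45), EMILIN2 (2.1 ± 0.161) and FBN2 (1.59 ± 0.0852) to FBLN5 (0.372 ± 0.0668 CPM per kilobase, SD, n = 3). FBN1 and EFEMP1 overlapped there. In shCCN3 cells EFEMP1 led (104 ± 7.42), followed by MFAP2 (33.6 ± 3.34), FBN1 (26.7 ± 5.60), EFEMP2 (16.2 ± 1.44), EMILIN2 (2.5 ± 0.108), FBLN5 (0.633 ± 0.0759), FBN2 (0.358 ± 0.0914) and EMILIN1 (0.203 ± 0.0163 CPM per kilobase, SD, n = 3). MFAP2 and FBN1 overlapped there. EFEMP1 went from the third place to the first, and EMILIN1 from the fifth place to the last. The starting places depended on the length used, since in shCTRL cells EFEMP1 stood above FBN1 by coding length and EMILIN1 above EFEMP2 (7.88 CPM per kilobase) by the union of exons. By longest transcript, the sum over all 10 members was 149 ± 3.35 CPM per kilobase in shCTRL and 184 ± 8.36 in shCCN3 cells (SD, n = 3). That difference was carried by EFEMP1, since the sum over the other 9 members was 125 ± 4.92 in shCTRL and 80.2 ± 0.989 CPM per kilobase in shCCN3 cells (SD, n = 3). The sums also depend on the length used and were taken for the longest transcript only. By coding length MFAP2 went from 277 in shCTRL to 145 CPM per kilobase in shCCN3 cells, and EFEMP1 from 50.1 to 212.

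The genomic surroundings of the members are given as a description. The neighbours follow from the positions of the chosen members, so their values are not independent of that choice. The median log2 fold change of the 24 nearest tested genes was 0.06 for FBN1, 0.09 for FBN2, -0.15 for MFAP2, -0.03 for FBLN5, 0.16 for EFEMP1, 0.03 for EFEMP2, -0.10 for EMILIN1 and 0.06 for EMILIN2. These medians say nothing of single neighbours, which ranged from -2.35 beside FBLN5 to 3.37 beside EFEMP1. Among the 24 genes around FBN2, GRAMD2B, at -1898 kb from its start, was higher by 2.06 (edgeR adjusted p = 1.38e-07). CHSY3, at 1646 kb, was higher by 2.65 (edgeR adjusted p = 0.00196), from 0.0808 to 0.51 CPM. ZNF608, at -3621 kb, was lower, with a log2 fold change of -1.02 (edgeR adjusted p = 0.000514).

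**Figure D3:**
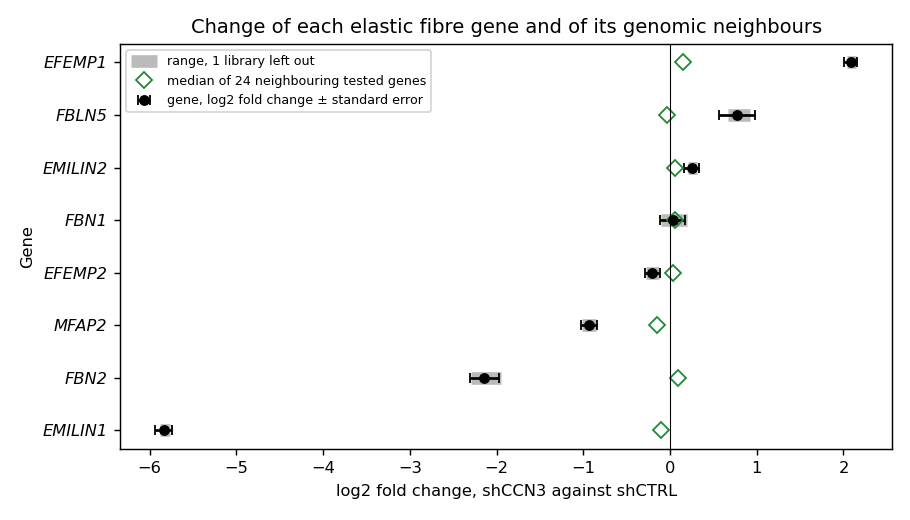
Log2 fold change (shCCN3 against shCTRL) of each tested gene with its standard error, the range with 1 library left out as a grey bar, and the median of the 24 nearest tested genes as a diamond. The medians of the neighbours lie between -0.15 and 0.16, while the genes run from -5.84 for EMILIN1 to 2.08 for EFEMP1.

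Around EMILIN1 the changes of single neighbours ran from -0.78 to 1.01 on the log2 scale. The adjacent tested genes were OST4, a subunit of oligosaccharyltransferase, at -0.22 (SE 0.108, edgeR adjusted p = 0.151), and KHK, which encodes ketohexokinase, at -0.78 (SE 0.118, edgeR adjusted p = 0.000856). MAPRE3, a microtubule end-binding protein, went from 45.2 to 28.7 CPM (log2 fold change -0.66, edgeR adjusted p = 6.8e-05). None of these 24 genes fell by more than KHK. Beside EFEMP1, the nearest tested genes on one side, CCDC85A and LOC100129434, were higher by 3.05 (SE 0.232, edgeR adjusted p = 1.4e-05) and 3.37 (SE 0.674, edgeR adjusted p = 0.00426). CCDC85A rose from 0.437 to 3.64 CPM and LOC100129434 from 0.064 to 0.689 CPM. On the other side PNPT1, an RNA-degrading enzyme of mitochondria, rose by 0.52 (SE 0.085, edgeR adjusted p = 0.0014). These neighbours were singled out after their values were seen.

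**Figure D4:**
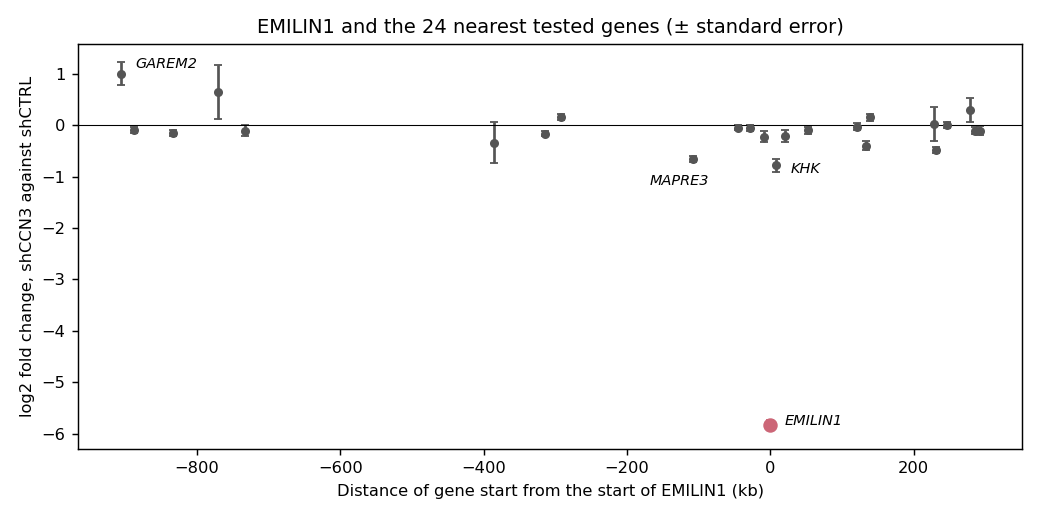
Log2 fold change with standard error of EMILIN1 and its 24 nearest tested genes against the distance of each gene's start from that of EMILIN1 in kilobases. EMILIN1 lies alone at -5.84, and the neighbours lie between -0.78 (KHK) and 1.01 (GAREM2).

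The proteins that bind, cross-link or cut elastic fibres were read from a list of 53 further genes, of which 40 passed the filter. Of these, 13 were lower, 9 were higher and 18 were not called by edgeR's quasi-likelihood test, a share of 55.0% called against 33.4% of all genes. The median log2 fold change was -0.07. The changes were thus spread over both directions. This list was also chosen with earlier results of these data known. Nothing is therefore read from its share, and the adjusted p-values printed for its genes below are descriptive.

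Related matrix proteins held 1 gene that rose, 2 that fell and 2 not called, and 4 had too few counts. FBLN1, which associates with elastin and fibronectin, rose from 149 ± 8.23 to 207 ± 8.81 CPM (SD, n = 3; log2 fold change 0.48, edgeR adjusted p = 0.000434). FBLN7 fell from 17.1 to 9.97 CPM (log2 fold change -0.78, edgeR adjusted p = 0.000182). MMRN2, an EMILIN family member known from endothelium, fell from 7.13 to 5.44 CPM (log2 fold change -0.39, edgeR adjusted p = 0.0457), a call that was lost in 7 of 13 alternative fits. The 4 genes with too few counts were FBN3, EMILIN3, MMRN1 and MFAP4, which had between 0 and 7 counts in all libraries together.

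The latent TGF-beta complex is tethered to fibrillin by members of the LTBP family, though not every LTBP does so. LTBP1 read 457, 451 and 405 CPM in shCTRL and 272, 213 and 272 CPM in shCCN3 libraries. The groups did not overlap, and the log2 fold change was -0.79 (SE 0.099, edgeR adjusted p = 0.000283). LTBP4 also fell, from 69.6 to 47.7 CPM (log2 fold change -0.55, edgeR adjusted p = 0.000447), while LTBP2 rose from 104 to 145 CPM (log2 fold change 0.47, edgeR adjusted p = 0.00298). TGFB2, one of the ligands, rose from 34.0 ± 3.13 to 74.1 ± 10.8 CPM (SD, n = 3; log2 fold change 1.12, edgeR adjusted p = 7.52e-05). TGFB1, TGFB3 and LTBP3 did not pass the test.

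Lysyl oxidases cross-link elastin and collagen. LOXL1, the family member tied to fibulin-5, fell from 210 ± 11.3 to 153 ± 3.70 CPM (SD, n = 3; log2 fold change -0.46, edgeR adjusted p = 0.000404). LOX rose from 75.1 to 92.9 CPM (log2 fold change 0.31, edgeR adjusted p = 0.0275), which was lost in 4 of 13 alternative fits. LOXL2, the one with the highest CPM, was at 651 and 710 CPM and did not pass the test (edgeR adjusted p = 0.166). It was called only when shCCN3 replicate 2 was left out (log2 fold change 0.19).

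Among the ADAMTS proteins that bind microfibrils, 3 rose and 1 fell. ADAMTS6, a protease that acts on microfibrils, rose from 4.57 ± 0.627 to 11.2 ± 1.04 CPM (SD, n = 3; log2 fold change 1.29, edgeR adjusted p = 6.04e-05). THSD4, an ADAMTS-like protein that promotes fibrillin-1 assembly, rose from 32.7 to 49.2 CPM (log2 fold change 0.59, edgeR adjusted p = 0.00284). The remaining calls, named after their values were seen, were ADAMTS10 at 0.143 and 0.854 CPM and ADAMTS17 at 0.367 and 0.0338 CPM. With 81 counts in all, ADAMTS17 lost its call without shCTRL replicate 1 or without shCCN3 replicate 3, and its log2 fold change ran from -7.56 to -2.71 with 1 library left out. Of the folding and processing genes, FURIN, the protease that trims profibrillin, rose from 168 to 193 CPM (log2 fold change 0.20, edgeR adjusted p = 0.0302), a call lost in 6 of 13 alternative fits. FKBP10, a collagen and elastin chaperone, was at 307 and 291 CPM and did not pass (edgeR adjusted p = 0.408).

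The integrins that bind fibrillins, fibulins and EMILINs moved in both directions. ITGAV, the alpha-V chain, rose from 33.7 to 58.8 CPM (log2 fold change 0.80, edgeR adjusted p = 0.00125). ITGB8 fell from 5.78 ± 0.954 to 1.84 ± 0.354 CPM (SD, n = 3; log2 fold change -1.64, edgeR adjusted p = 0.000119). ITGA8 fell by 1.06 on the log2 scale to 23.9 ± 3.86 CPM (SD, n = 3; edgeR adjusted p = 0.000125). ITGA5, the alpha chain of the fibronectin receptor, fell from 565 to 462 CPM (log2 fold change -0.29, edgeR adjusted p = 0.00258). The common beta chain ITGB1 was at 951 ± 96.7 and 1123 ± 160 CPM (SD, n = 3) and did not pass (edgeR adjusted p = 0.13). ITGB1 was called only when shCCN3 replicate 2 was left out (log2 fold change 0.36). The EMILIN1 receptor chain ITGA4 was at 55.8 and 55.4 CPM, and its partner class member ITGA9 had 18 counts in all.

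Of 6 tested enzymes that can cut elastin or microfibrils, 4 fell and 0 rose at the threshold used, and CTSK and CTSS did not pass. MMP2 read 504, 537 and 540 CPM in shCTRL and 193, 182 and 191 CPM in shCCN3 libraries. It was the largest decrease of this group in CPM, with a log2 fold change of -1.48 (SE 0.058, edgeR adjusted p = 3.25e-07). MMP14, which activates MMP2, fell from 258 to 213 CPM (log2 fold change -0.28, edgeR adjusted p = 0.00551). The cathepsins CTSL and CTSV fell from 784 to 543 CPM (log2 fold change -0.53, edgeR adjusted p = 9.24e-05) and from 2.0 to 0.972 CPM (log2 fold change -1.04, edgeR adjusted p = 0.00422). The elastases MMP9, MMP12 and ELANE were at or near 0.

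**Figure D5:**
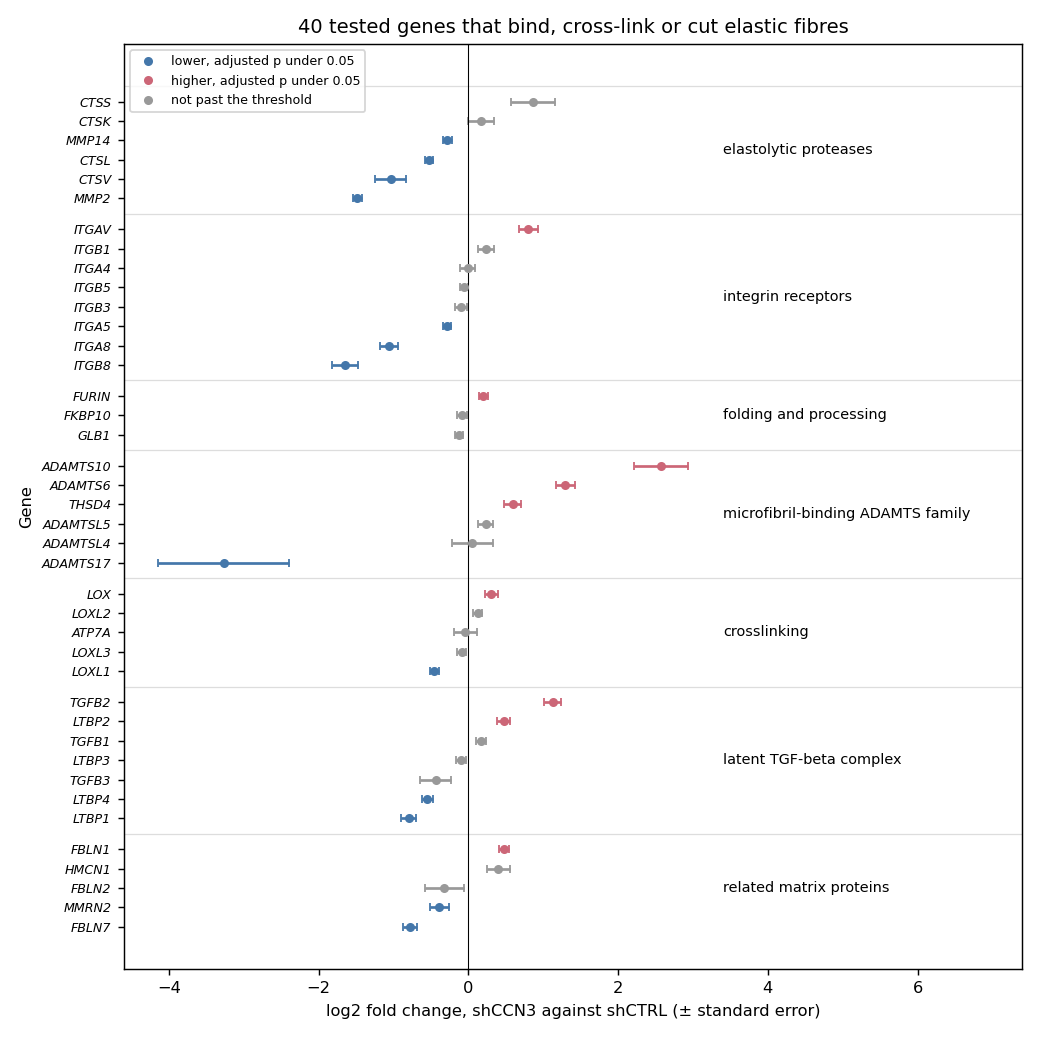
Log2 fold change with standard error of the 40 tested genes around elastic fibres, grouped by role and coloured by the call of edgeR's quasi-likelihood test at an adjusted p under 0.05. In all, 13 genes lie lower, 9 higher and 18 are not called, and the elastolytic proteases hold 4 lower genes, no higher one and 2 not called.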

How the data were processed

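RNA of 3 shCTRL and 3 shCCN3 samples had been sequenced by the authors from stranded poly(A) libraries. They deposited raw read counts per gene, not normalized, for 46427 genes with NCBI Gene IDs. The submitters' processing notes name bcl2fastq 2.20.0, Trimmomatic, HISAT2 2.1.0, StringTie 2.1.3d, DESeq2 and GRCh38. The annotation used was not given in the sources used here.

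Groups were taken from the sample labels. Counts were fitted with edgeR 4.0.16 (R 4.3.3) by the quasi-likelihood test with TMM factors, the low-count filter by group (17419 genes left) and Benjamini-Hochberg adjustment over all of them. The SE of a log2 fold change was taken as its size divided by the square root of the test's F statistic. Alternatives used limma 3.58.1, DESeq2 1.42.0, other scalings, filters and a replicate block, and left out each library. The fit was tested on simulated data. Replicates of a group differed by 6.75 to 42.5 times the counting noise (chi-square per degree of freedom), so no library was a copy. Lengths came from GENCODE release 29, and positions and upstream windows from RefSeq (44698 Gene IDs matched, and 6 of 10 members had a window). The members and all lists were chosen with earlier results of these data known. Of the list genes, those called with at least 1 CPM were named, at most 4 a group by size of change, with each group's most abundant gene.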

Additional observations from a re-analysis of the deposited data

How the results depend on the processing

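Over 13 alternative fits of the 8 tested members, 91 of the log2 fold changes kept their direction and their side of the threshold, 9 kept the direction but lost the call, 1 gained a call and 3 changed sign. The number of members called lower was 3 to 4 with 1 library left out. The number called higher was 1 to 3 with 1 library left out, where EMILIN2, and for 3 libraries also FBLN5, lost the call. The sign changes were all of FBN1, which was -0.06 without shCTRL replicate 3, -0.02 without shCCN3 replicate 1 and -0.10 without shCCN3 replicate 3, and reached 0.19 without shCCN3 replicate 2. The other system genes called lower numbered 11 to 13 and those called higher 7 to 13 over the alternatives. For the system genes named by the rule above, 280 log2 fold changes were on the same side, 17 lost the call and 2 gained it. The gains were of ITGB1 and LOXL2 without shCCN3 replicate 2, a fit that called 40.5% of all genes tested. Most of the named genes were named because they were called, so the count of 280, 17 and 2 does not describe other genes. It leaves out ADAMTS10 and ADAMTS17. Exon-union length and coding length each moved 2 places in the order of levels in shCTRL cells (EFEMP2 and EMILIN1 with the first, FBN1 and EFEMP1 with the second). With 5 tested neighbours a side, the regional medians of FBN1 (-0.03), FBLN5 (-0.13), EFEMP1 (0.24), EFEMP2 (-0.18) and EMILIN2 (0.18) moved. The cause of these shifts was not tested.

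Replicates with the same number did not deviate together (correlations 0.09, -0.03 and -0.07), so the numbers were not taken as pairs. With a replicate block, 4887 genes (28.1%) were called against 5825 (33.4%), 3 members lower and 2 higher, and EMILIN2 lost its call (log2 fold change 0.25). Depth limits FBLN5, EMILIN1 in shCCN3 cells and the undetected ELN and MFAP5.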
